A study of Mus musculus with 9 samples.

Results

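Gene expression was described for the mouse zinc finger protein genes numbered Zfp700 to Zfp999, in kidney cortex after proximal tubule Vhl deletion, after streptozotocin (STZ), and after both. The genes were taken by name alone: a symbol made of Zfp and exactly 3 digits, the first of them 7, 8 or 9, with no letter after. This found 112 of the 18657 genes in the deposited table. Of these, 99 had a mean normalized count of at least 10 over the 9 libraries and were tested, together with 14437 genes in all. The 13 others (Zfp708, Zfp784, Zfp831, Zfp853, Zfp872, Zfp957, Zfp972, Zfp977, Zfp981, Zfp982, Zfp985, Zfp992 and Zfp993) were too low to test.

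The animals were male littermates on a mixed C57BL/6/FVB background, and all of them, controls included, carried the floxed Vhl allele (Vhl fl/fl). VHLΔPT mice also carried Cre recombinase under the Sglt2 promoter, which is active in the early proximal tubule, so that Vhl was removed from a part of the cortex only. The authors reported that deletion was partial within that segment too. The con/STZ group consisted of Vhl fl/fl mice given STZ at 100 mg/kg on 2 consecutive days, and the VHLΔPT/STZ group of Cre-carrying mice given the same. VHLΔPT and con mice received citrate buffer instead. Mice were 12 weeks old at injection and were followed for 10 weeks. Each poly(A) library was made from cortex RNA of 2 mice, with 2 libraries for VHLΔPT, 2 for con/STZ, 2 for VHLΔPT/STZ and 3 for con. The values are quantile normalized gene counts, called normalized counts here, whose read depth is not known, and the errors given are between pools of mice.

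Most genes with names of this kind encode proteins built from repeated Cys2-His2 zinc fingers, in which 2 cysteines and 2 histidines hold a zinc ion and the helix between them reads a few bases of DNA. Many carry a KRAB box in front of the fingers. A KRAB box binds the scaffold protein TRIM28 (KAP1), which brings the histone H3 lysine 9 methyltransferase SETDB1 and heterochromatin proteins to the bound site, and many such proteins silence endogenous retroviruses and other transposable elements. The genes arose by repeated duplication and lie in clusters of close relatives. VHL marks the alpha subunits of the hypoxia-inducible factors for degradation, so that its loss keeps these factors active.

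A translated search of GENCODE M21 (GRCm38) found a coding transcript for 110 of the 112 genes, all except Zfp783 and Zfp939. A KRAB box pattern was found in 86 of them (78.2%), against 1.57% of the 21901 protein-coding genes searched. The number of fingers had a median of 11 and reached 23 in Zfp748 and Zfp788. It was 0 by this pattern in 6 genes, among them Zfp750. To show the repeat itself, 1 finger with its linker is given from each of 5 genes whose level rose in at least 1 comparison. All are coding exon sequence on GRCm38, read 5′ to 3′ on the coding strand, with the codons of the 2 zinc-binding cysteines and the 2 histidines in capitals. Zfp871 lies at chr17:32775450-32775533 (minus strand), Zfp950 at chr19:61120248-61120331 (minus), Zfp971 at chr2:178033006-178033089 (plus), Zfp758 at chr17:22375417-22375500 (plus) and Zfp715 at chr7:43299128-43299211 (minus).
Zfp871: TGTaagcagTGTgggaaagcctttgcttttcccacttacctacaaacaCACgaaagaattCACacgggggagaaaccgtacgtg
Zfp950: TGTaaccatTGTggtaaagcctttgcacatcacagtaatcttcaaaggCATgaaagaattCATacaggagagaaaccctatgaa
Zfp971: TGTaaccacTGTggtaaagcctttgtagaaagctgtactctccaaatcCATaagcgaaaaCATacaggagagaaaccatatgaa
Zfp758: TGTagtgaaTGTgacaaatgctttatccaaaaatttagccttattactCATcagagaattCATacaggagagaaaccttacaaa
Zfp715: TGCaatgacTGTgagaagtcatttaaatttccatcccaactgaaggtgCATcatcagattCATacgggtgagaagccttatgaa
The stretch between the second cysteine and the first histidine includes the DNA-reading helix, and the letters after the second histidine code for the linker to the next finger. Of the 84 bases, the finger of Zfp950 matched that of Zfp871 at 63, Zfp971 at 53, Zfp715 at 49 and Zfp758 at 48.

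Where related genes are alike over a whole read, this bears on the counts. Reads were 50 bases long, and a read whose sequence occurs in more than 1 gene cannot be placed with certainty. A median of 3.83% of the 50-base windows of these genes also occurred in transcripts of another gene, 14 genes shared none, and 26 shared over 20%. Zfp935 shared all of its windows (100%) and Zfp708 94.86%. Zfp971 shared 51.14% with Zfp968, Zfp973 and Zfp965, and Zfp808 shared 28.23% with Zfp934 and others, so the levels of these 4 genes are uncertain. Zfp871 shared 0.26%, and its level is therefore nearly free of this limit. In the other called genes the share was between 0 and 5.81%.

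Before the levels, the libraries need a word. The second con/STZ library had a normalized count of 3205 for Xist, a transcript of female cells, against 0 to 6.22 in all other libraries, which goes against the male label. Of 4 Y-linked genes, 3 were lowest in that library, with Eif2s3y at 496.8 there and at 725.8 to 1254 in the others, while Ddx3y, at 498.2, was within the con range of 479.5 to 636.8. Changes of the genes called in con/STZ and the interaction term of Zfp871 are also given without it. Other results include it unless stated. The libraries also differed in how the deviation of a gene from its mean followed gene length, with correlations from -0.455 in con 3 to 0.269 in con/STZ 2 (0.188 and 0.212 in VHLΔPT, -0.26 to -0.19 in the other con libraries). The zinc finger genes tested here were of ordinary length, with a median of 4209 exon bases against 4307 for all genes tested, but Zfp871 has 11116 and Zfp950 has 10615. Results were therefore also computed with the length trend removed from each library. All 14 proximal tubule markers were present, with sums of 491890 to 634528. Vhl itself had a log2 change against con of -0.24 in VHLΔPT (limma adjusted p = 0.145) and -0.05 in VHLΔPT/STZ (limma adjusted p = 0.77).

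Together the 112 genes held 0.125 to 0.145% of the total normalized counts of a library. Levels of different genes were compared per kb of merged exon. In con, the median was 28.9 normalized counts per kb and the range 0.053 (Zfp831) to 1984 (Zfp706). Genes with the KRAB pattern had a median of 24.4 per kb and none was above 180.5 (Zfp869), whereas the 24 without it had a median of 42.6 per kb, and the 4 highest levels were all among them.

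**Figure D1:**
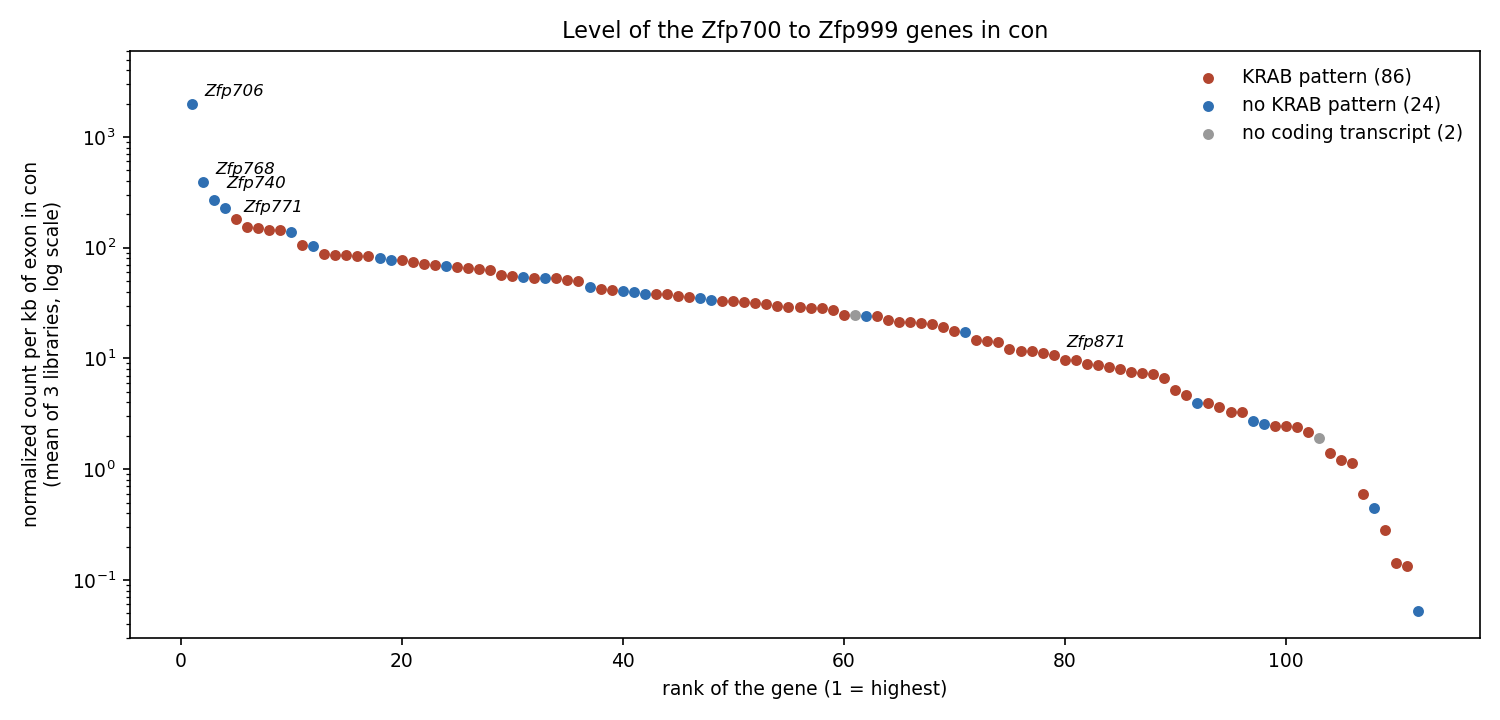
Level of each of the 112 genes in con, as the mean normalized count per kb of exon over 3 libraries on a log axis, ordered from the highest (rank 1) to the lowest, coloured by whether the KRAB pattern was found. Zfp706, Zfp768, Zfp740 and Zfp771, at 1984 to 227.8 per kb, have no KRAB pattern, and Zfp871 is at rank 79 with 10.69 per kb.

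Zfp706, a small protein with a single finger that holds back self-renewal in mouse embryonic stem cells, was far above the rest at 1984 ± 73.1 per kb in con (SD, n = 3). Zfp768 followed with 392.4 ± 9.28, Zfp740 with 269.4 ± 21.8 and Zfp771 with 227.8 ± 12.5 per kb. These 4 kept the same order in every con library. Zfp869 had 180.5 ± 27.6, Zfp809 154.6 ± 30.9, Zfp810 149.4 ± 19.5 and Zfp954 145.7 ± 13.2 per kb, and neighbours in this lower group did not differ beyond their spread. Zfp809 is the KRAB protein that recognises the primer binding site of murine leukaemia virus and silences the provirus through TRIM28, and its neighbour on chromosome 9, Zfp810, was at about the same level in con.

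The first comparison asked what Vhl deletion alone did. In VHLΔPT, 2 of the 99 genes rose and 0 fell (called at a limma adjusted p under 0.05 over all genes and a fold over 1.5), that is 2.02%, against 1.94% of all 14437 genes (1.66% higher and 0.277% lower). The 2 were Zfp871 and Zfp971, both with the KRAB pattern.

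Zfp871 (ENSMUSG00000024298, chromosome 17 from 32765496 to 32788287, minus strand, GRCm38), a KRAB gene with 15 fingers, had normalized counts of 743.7 and 531.1 in VHLΔPT, 660.9 and 710.9 in con/STZ, 560.0 and 266.0 in VHLΔPT/STZ, and 131.6, 162.2 and 62.8 in con. Every library of the 3 altered groups was above every con library, the lowest of them being VHLΔPT/STZ 2, which was the library of its group with a length correlation of -0.057 rather than 0.184. On the log2 scale the change against con was 2.5 (standard error 0.41) in VHLΔPT, with an adjusted p of 0.036 by limma. In VHLΔPT the level per kb was 57.3, against 10.7 in con. Malat1, a nuclear RNA read here as a sign of RNA quality, split the libraries in the same way, at 2553 and 2063 in VHLΔPT, 3398 and 1646 in con/STZ, 1212 and 1258 in VHLΔPT/STZ, and 881.4, 1108 and 906.6 in con. Neat1, another nuclear RNA, overlapped between the groups, at 4851 to 14020 in the altered libraries and 5269 to 9595 in con. Their part in the change of Zfp871 was not tested. With the length trend removed the VHLΔPT change was 2.18 and no longer passed (adjusted p = 0.1). It also no longer passed without con/STZ 2 or without con/STZ 1, which enter this comparison only through the shared spread. In all, the VHLΔPT call of Zfp871 was lost in 11 of 20 alternatives.

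Zfp971 (ENSMUSG00000074519, chromosome 2, 12 fingers) had 86.1 and 70.4 in VHLΔPT, 89.8 and 73.1 in con/STZ, 66.8 and 47.9 in VHLΔPT/STZ, and 26.1, 41.1 and 28.1 in con. Here too no library of an altered group fell within the con range. Its log2 change in VHLΔPT was 1.29 (standard error 0.27, adjusted p = 0.0474 by limma), a call that was lost in 12 of 20 alternatives. Because over 51% of its windows occur in its relatives, such reads cannot be told from those of Zfp968, Zfp973 or Zfp965.

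**Figure D2:**
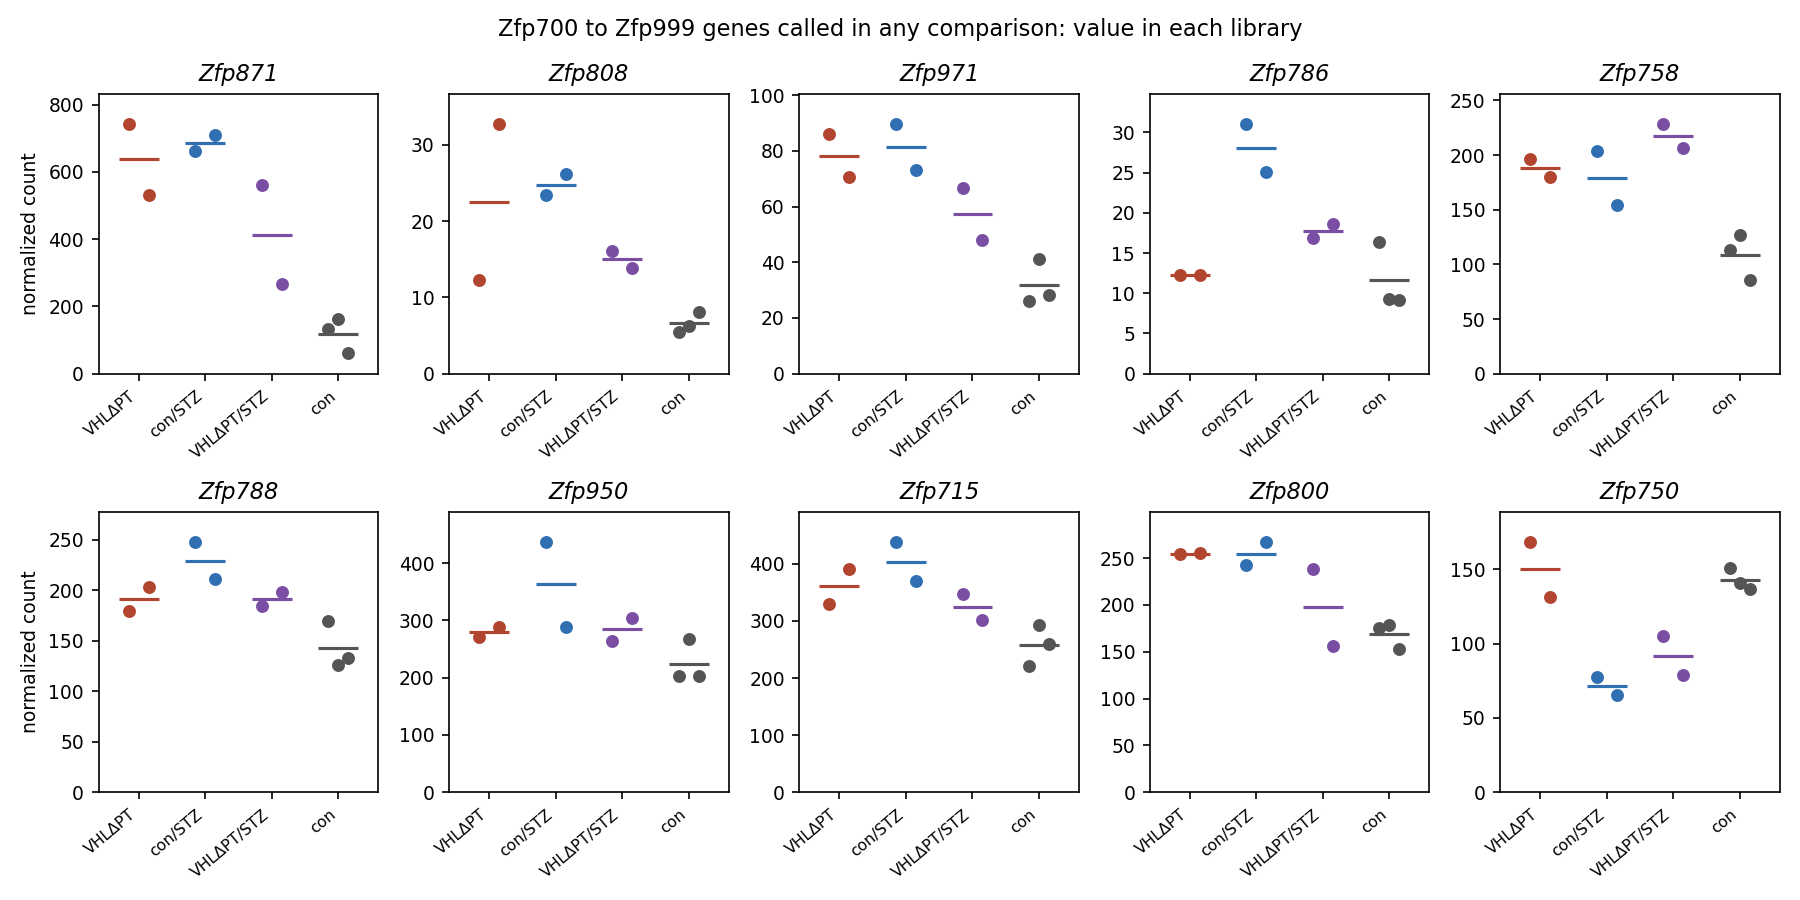
Normalized count in each library (points) and the group mean (bar) for the 10 genes called in any comparison, each panel on its own axis from 0, with the groups VHLΔPT, con/STZ, VHLΔPT/STZ and con from left to right. Zfp871 was at 743.7 and 531.1 in VHLΔPT and 660.9 and 710.9 in con/STZ, all above the 3 con libraries, and Zfp750 is the gene that is lower in con/STZ (77.6 and 65.1) than in con.

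Below the threshold, the changes in VHLΔPT leaned to one side. The median log2 change of the 99 genes was 0.22, against -0.02 for all genes, and 72 of 99 values were above 0 (72.7%, against 47.7% of all genes). By the unadjusted p alone (under 0.05), 19 were higher (19.2%, against 14% of all genes) and 3 lower (3.03%, against 13.2%). Over the 77 tested genes with the KRAB pattern the median was 0.29, and over the 20 without it 0.01. The 251 other Zfp genes tested had a median of 0.18, with 4 higher and 0 lower, a lean of the same sign. With the length trend removed the median of the 99 was 0.17, and 0 genes were called by limma, with 23 under an unadjusted p of 0.05.

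The second comparison asked what STZ did in control mice. In con/STZ, 9 of the 99 genes rose and 1 fell, which is 10.1%, against 15.7% of all genes (8.79% higher and 6.87% lower). The median log2 change was 0.16, against -0.02 for all genes, and 65 of 99 values were above 0 (65.7%, against 48.5% of all genes). This median was 0.05 without con/STZ 1, 0.23 without con/STZ 2 and 0.07 without con 3. By the unadjusted p alone (under 0.05), 17 were higher (17.2%, against 20.6% of all genes) and 7 lower (7.07%, against 21.6%). Among KRAB genes 8 of 77 rose and 0 fell, with a median of 0.23, and among genes without the pattern 1 of 20 rose and 1 fell, with a median of -0.07. Of the 251 other Zfp genes, 27 rose and 8 fell, with a median of 0.21.

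Zfp871 rose most, by 2.62 on the log2 scale (standard error 0.41, adjusted p = 0.00425 by limma), a 6.17-fold change. This was the call that held in all 20 alternatives, with changes from 2.17 to 2.90 and adjusted p from 0.00215 to 0.0378. Without con/STZ 2 it was 2.57 (adjusted p = 0.0378), and with the length trend removed 2.27 (adjusted p = 0.00764). Zfp971 rose by 1.35 (standard error 0.27, adjusted p = 0.00916), and by 1.5 without con/STZ 2 (adjusted p = 0.0445), while without con/STZ 1 Zfp971 was at 1.20 (adjusted p = 0.076) and was no longer called.

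Zfp808, a KRAB gene with 22 fingers on chromosome 13, was low everywhere, with 12.3 and 32.8 normalized counts in VHLΔPT, 23.4 and 26.1 in con/STZ, 16.1 and 13.9 in VHLΔPT/STZ, and 5.44, 6.22 and 8.11 in con. The altered libraries lay above the con libraries, and the 2 VHLΔPT libraries differed widely from each other. Its log2 change in con/STZ was 1.78 (standard error 0.44, adjusted p = 0.0181 by limma). With a pseudocount of 10 the change was 1.07 (adjusted p = 0.0231 by limma). The con mean of Zfp808, 6.59, was under the filter of 10, which the gene passed only through the altered groups. The filter and the test thus rest on the same high values. Zfp786, on chromosome 6, had 12.3 and 12.3 in VHLΔPT, 31.1 and 25.1 in con/STZ, 16.9 and 18.7 in VHLΔPT/STZ, and 16.3, 9.33 and 9.22 in con. The rise of Zfp786 in con/STZ was 1.24 (standard error 0.35, adjusted p = 0.0295), and its VHLΔPT values lay within the con range.

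The next 5 genes rose in con/STZ by 0.59 to 0.73 on the log2 scale, close to the fold limit. Zfp758, on chromosome 17, had 196.1 and 180.3 in VHLΔPT, 203.4 and 154.4 in con/STZ, 228.9 and 206.8 in VHLΔPT/STZ, and 112.8, 126.6 and 85.3 in con. All altered libraries of Zfp758 were above con, and the VHLΔPT/STZ pair was highest. The con/STZ change of Zfp758 was 0.73 (standard error 0.20, adjusted p = 0.0282 by limma), the VHLΔPT change was 0.81 (adjusted p = 0.0594) and the VHLΔPT/STZ change was 1.02 (adjusted p = 0.0505). The VHLΔPT/STZ value of Zfp758 was the nearest to a call in that group.

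Zfp788 and Zfp715, 2 KRAB genes with 23 and 18 fingers in the same stretch of chromosome 7, share no 50-base window with another gene. Zfp788 had 178.9 and 203.4 in VHLΔPT, 247.6 and 210.9 in con/STZ, 184.6 and 198.2 in VHLΔPT/STZ, and 169.6, 125.4 and 132.8 in con. Zfp715 had 330.1 and 391.8 in VHLΔPT, 438.3 and 369.9 in con/STZ, 348.1 and 302.3 in VHLΔPT/STZ, and 220.8, 293.8 and 259.8 in con. For both genes no altered library fell within the con range. The con/STZ changes were 0.69 for Zfp788 (standard error 0.17) and 0.65 for Zfp715 (standard error 0.16), each with an adjusted p of 0.0185 by limma.

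Zfp950, on chromosome 19, had 271.0 and 287.9 in VHLΔPT, 437.0 and 289.4 in con/STZ, 264.1 and 304.7 in VHLΔPT/STZ, and 202.8, 268.0 and 203.2 in con. Its rise in con/STZ was 0.67 (standard error 0.20, adjusted p = 0.0358), and the 2 con/STZ libraries stood far apart. The change of Zfp950 was 0.38 without con/STZ 1 (adjusted p = 0.267) and 0.33 with the length trend removed (adjusted p = 0.262), and in neither was it called. Zfp800, a gene with 5 fingers and no KRAB pattern, had 254.4 and 255.2 in VHLΔPT, 242.1 and 267.1 in con/STZ, 238.7 and 156.4 in VHLΔPT/STZ, and 175.2, 178.0 and 152.5 in con. It rose by 0.59 in con/STZ (standard error 0.18, adjusted p = 0.0419), a 1.51-fold change that dropped under the limits in 13 of 20 alternatives, and its VHLΔPT change was 0.60 (adjusted p = 0.0914).

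The gene that fell was Zfp750, known as a regulator of terminal differentiation in the epidermis. It had 168.3 and 131.4 in VHLΔPT, 77.6 and 65.1 in con/STZ, 105.1 and 78.7 in VHLΔPT/STZ, and 150.9, 140.9 and 136.7 in con. All 4 libraries of STZ-treated mice were below all 5 libraries of mice given buffer. The log2 change was -1.0 in con/STZ (standard error 0.19, adjusted p = 0.00834 by limma), -0.64 in VHLΔPT/STZ (adjusted p = 0.0991) and 0.06 in VHLΔPT (adjusted p = 0.870). Without con/STZ 2, Zfp750 was at -0.87 (adjusted p = 0.066) and was no longer called.

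A further 5 genes passed the adjusted p in con/STZ but not the fold of 1.5. Zfp704, first described as a glucocorticoid-induced gene, was 0.57 higher (adjusted p = 0.0311), and Zfp809 was 0.53 higher (adjusted p = 0.0433). Zfp771 had a log2 change of -0.48 (adjusted p = 0.0141), Zfp706 had -0.39 (adjusted p = 0.0313) and Zfp787 -0.35 (adjusted p = 0.0362). Of the genes listed highest in con, Zfp706 and Zfp771 thus had lower values in con/STZ, while Zfp768, at -0.18 (adjusted p = 0.119), and Zfp740, at 0.16 (adjusted p = 0.260), did not pass. Zfp951, a KRAB gene, had the most negative value, -1.90, but with 60.0 and 10.1 in con/STZ against 89.4, 137.3 and 72.4 in con its standard error was 0.67 and its adjusted p 0.0633.

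Without con/STZ 2, 3 of the 10 genes called in con/STZ remained (Zfp871, Zfp950 and Zfp971). The log2 changes without con/STZ 2 not given above were 1.70 for Zfp808, 1.39 for Zfp786, 0.92 for Zfp758 and 0.80 for Zfp788. They were 0.77 for Zfp715, 0.52 for Zfp800 and 0.97 for Zfp950. That fit left 1 con/STZ library. A fit without con 3, con/STZ 2 and VHLΔPT/STZ 2 left 1 library in each STZ group. Most calls were lost there too, and the change of Zfp871 was 2.17. Leaving out con/STZ 1 instead of con/STZ 2 also removed most of the calls. With the length trend removed, 8 of the 10 remained (all but Zfp800 and Zfp950), and Zfp809, at 0.67, was added.

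**Figure D3:**
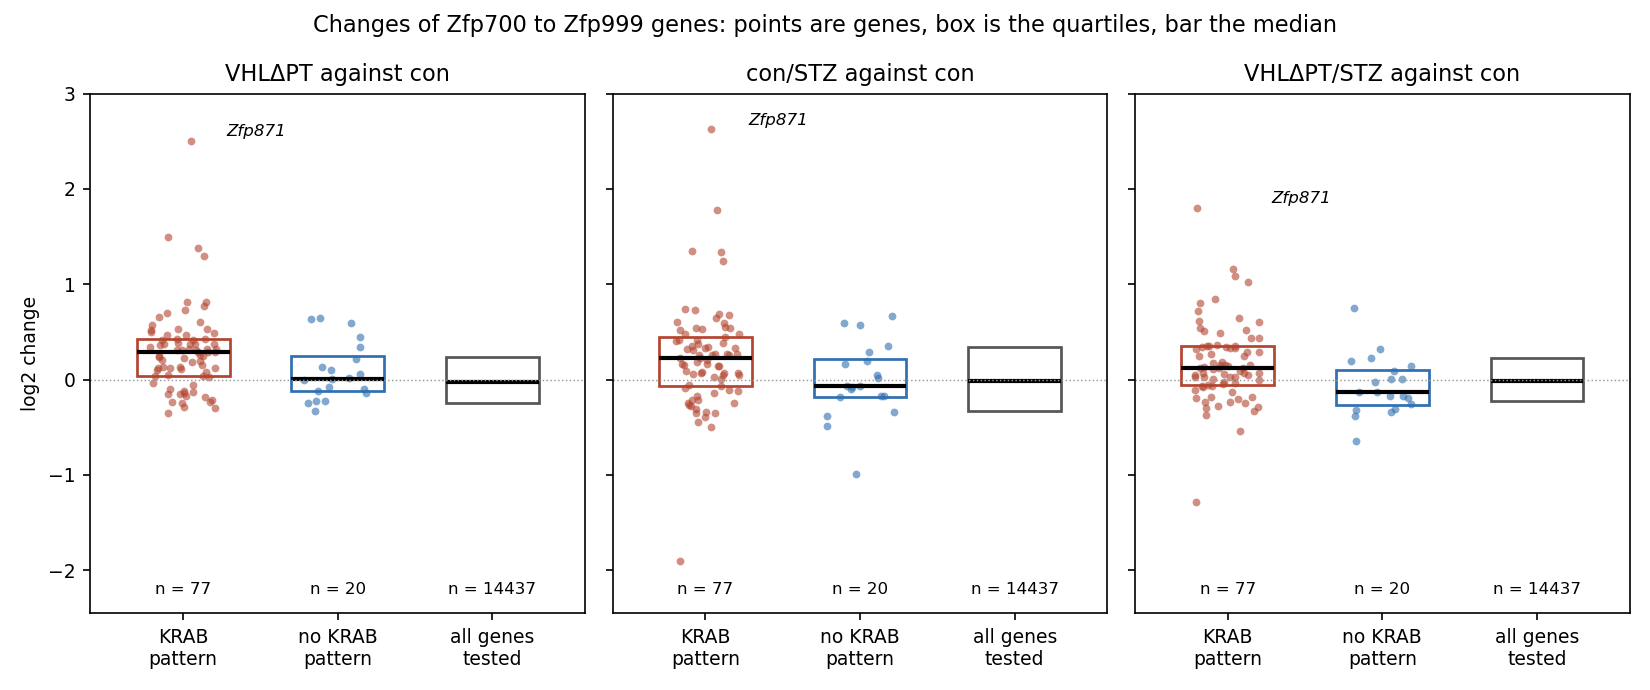
Log2 change of each tested gene (points) against con in VHLΔPT, con/STZ and VHLΔPT/STZ, for the 77 genes with the KRAB pattern and the 20 without it, beside all 14437 genes tested (box from the first to the third quartile, black bar at the median). The medians of KRAB genes are 0.29, 0.23 and 0.12 and those of the other genes 0.01, -0.07 and -0.13, and the 3 panels share the con libraries.

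With both Vhl deletion and STZ, 0 of the 99 genes passed against con by limma, against 1.01% of all genes. By the unadjusted p alone (under 0.05), 9 were higher (9.09%, against 12.6% of all genes) and 3 lower (3.03%, against 12.2%), and the median log2 change was 0.07. Zfp871 had a change of 1.80 (standard error 0.41, adjusted p = 0.0592), and Zfp971 of 0.84 (adjusted p = 0.112). In VHLΔPT/STZ against con/STZ, 0 passed (background 0.00693%), with 0 higher and 2 lower by the unadjusted p (446 and 511 of all 14437 genes) and a median of -0.05. In VHLΔPT/STZ against VHLΔPT, 0 passed (background 0.00693%), with 3 higher and 6 lower by the unadjusted p (744 and 849 of all genes) and a median of -0.09. Zfp871 had -0.83 (standard error 0.45, adjusted p = 0.763) against con/STZ and -0.70 (standard error 0.45, adjusted p = 0.569) against VHLΔPT.

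Whether STZ changed a gene differently in the 2 genotypes was tested by the interaction term, the STZ change in VHLΔPT mice minus that in control mice. Of the 99 genes, 1 passed, Zfp871, at -3.33 (standard error 0.61, adjusted p = 0.0416 by limma), beside 1.72% of all genes (0.305% with a positive and 1.41% with a negative term). Its STZ change was -0.70 in VHLΔPT mice and 2.62 in control mice. Over the 99 genes the median interaction was -0.24, against 0.03 for all genes, and it shares the con libraries with both comparisons above. The term for Zfp871 was -3.27 without con/STZ 2 and -3.38 without con/STZ 1, and it passed in neither. With the length trend removed it was -2.87 (adjusted p = 0.109).

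Neighbours on the chromosome were then set beside each other. Of the 112 genes, 81 lay within 1 Mb of another of them, in 17 groups, and chromosomes 7 and 17 held 23 and 21. Zfp871 stands at one end of a group of 6 on chromosome 17, from 32765496 to 33033402. The other 5 (Zfp811, Zfp799, Zfp870, Zfp952 and Zfp763) had changes of -0.30, 0.60, 0.16, 0.02 and 0.47 in VHLΔPT and of 0.26, 0.23, 0.06, -0.07 and 0.04 in con/STZ, and 0 of them was called. The rise was thus not shared across this group at the called level. A group of 13 lies on the same chromosome, from 21567008 to 22867134. In it, 12 of 13 changes were above 0 in VHLΔPT (median 0.41), 13 of 13 in con/STZ (median 0.36) and 11 of 13 in VHLΔPT/STZ (median 0.27), with 1 gene called, Zfp758. In the group of 6 on chromosome 6, Zfp786 was called in con/STZ while the medians of the group were -0.05 in VHLΔPT and -0.06 in con/STZ. In this group Zfp746 encodes PARIS, a repressor of the PGC-1alpha gene and substrate of parkin, and had 0.05 in con/STZ (adjusted p = 0.795).

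**Figure D4:**
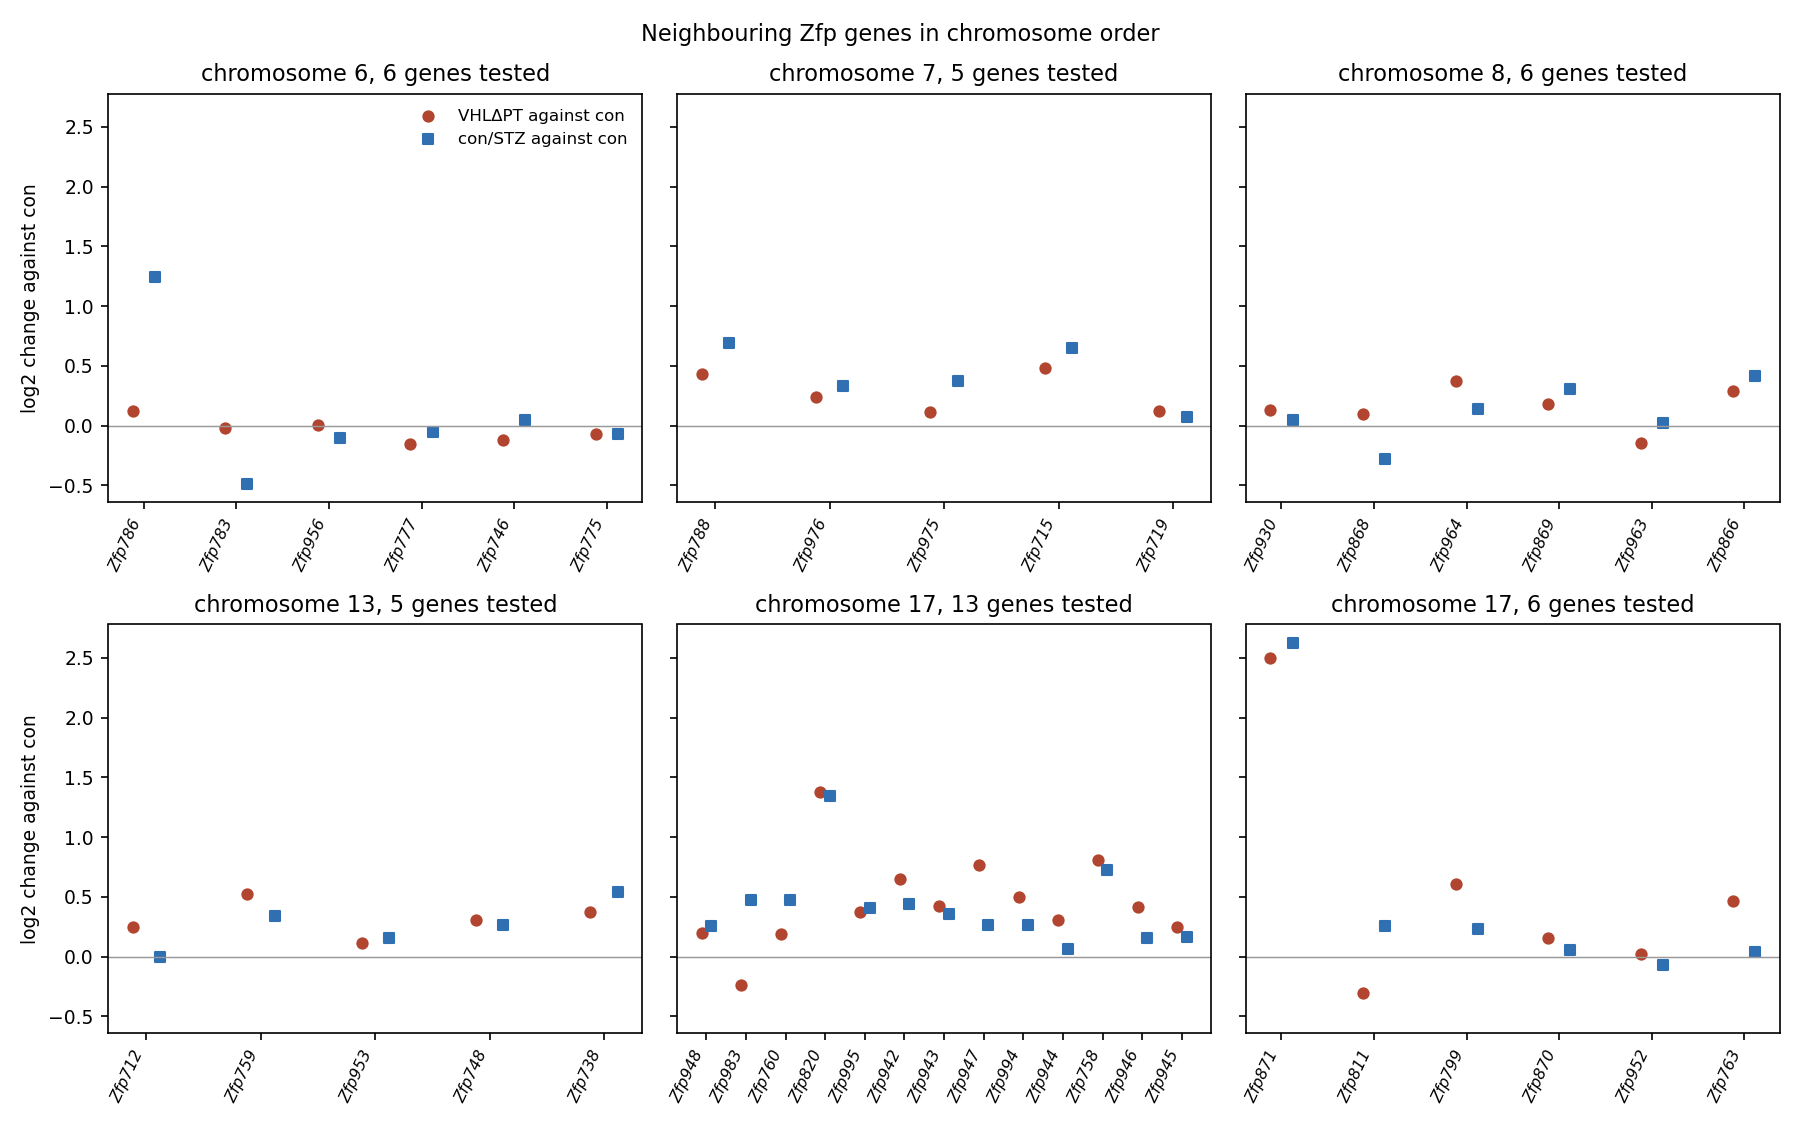
Log2 change against con in VHLΔPT (circles) and con/STZ (squares) for the 6 groups of neighbouring genes with at least 5 genes tested, in chromosome order from left to right. In the last panel Zfp871 is at 2.5 and 2.62 while its 5 neighbours are between -0.30 and 0.60, and in the group of 13 on chromosome 17 nearly all points are above 0. The 2 comparisons share the con libraries.

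Of the 98 other tested genes, the values over the 9 libraries most like those of Zfp871, by Pearson's r of the log2 values, were those of Zfp971 (r = 0.957), Zfp800 (0.904), Zfp748 (0.868), Zfp704 (0.864) and Zfp943 (0.855). The 9 points share groups and the length trend of their libraries, so this is a description. Zfp748 had 173.7 and 171.1 in VHLΔPT, 177.9 and 157.3 in con/STZ, 168.9 and 142.0 in VHLΔPT/STZ, and 133.1, 145.1 and 138.9 in con, a far smaller span than that of Zfp871.

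Among genes of known role, Zfp703, a corepressor and human breast cancer oncogene, had -0.15 in VHLΔPT (adjusted p = 0.602) and -0.08 in con/STZ (adjusted p = 0.749). Zfp711, an X-linked gene whose human counterpart recruits the histone demethylase PHF8, had 23.4 and 24.2 normalized counts in VHLΔPT, 26.1 and 22.6 in con/STZ, 28 and 23.6 in VHLΔPT/STZ, and 13.4, 15.7 and 15.7 in con. Its altered libraries were all above con, with changes of 0.64 in VHLΔPT (adjusted p = 0.165) and 0.67 in con/STZ (adjusted p = 0.0934). Zfp932, a repressor of endogenous retroviruses in mouse, had -0.06 in VHLΔPT (adjusted p = 0.854) and -0.24 in con/STZ (adjusted p = 0.295), and 37.02% of its windows are shared. Zfp770 (0.34 and 0.35, adjusted p = 0.280 and 0.187) and Zfp777 (-0.16 and -0.06, adjusted p = 0.483 and 0.779) did not pass in VHLΔPT or in con/STZ.

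Zfp809 and Zfp810, side by side on chromosome 9, had unlike values. Zfp809 had 346.6 and 419.6 in VHLΔPT, 653.3 and 654.3 in con/STZ, 533.0 and 595.9 in VHLΔPT/STZ, and 443.4, 374.2 and 555.3 in con. Zfp810 had 1268 and 1016 in VHLΔPT, 759.3 and 551.4 in con/STZ, 876.1 and 566.3 in VHLΔPT/STZ, and 813.9, 1047 and 886.7 in con. In con/STZ both libraries were above con for Zfp809 and below con for Zfp810, with log2 changes of 0.53 (adjusted p = 0.0433) and -0.49 (adjusted p = 0.116). In VHLΔPT the values were -0.24 for Zfp809 (adjusted p = 0.374) and 0.32 for Zfp810 (adjusted p = 0.368).

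The partners through which KRAB proteins work were read from a list of 38 corepressor gene symbols. Of these symbols 36 were found, and 35 of the genes were tested. In VHLΔPT 0 passed by limma, against 1.94% of all genes, with a median of 0.16. By the unadjusted p, 11 were higher (31.4%, against 14% of all genes) and 2 lower (5.71%, against 13.2%). In con/STZ 1 rose and 0 fell, against 8.79% and 6.87% of all genes, with a median of 0.13. By the unadjusted p, 12 were higher (34.3%, against 20.6% of all genes) and 3 lower (8.57%, against 21.6%). The adjusted p alone was passed by 8, of which 6 were higher and 2 lower, against 2040 and 2042 of all 14437 genes. In VHLΔPT/STZ 0 passed, against 1.01% of all genes, with a median of 0.09. By the unadjusted p, 5 were higher (14.3%, against 12.6% of all genes) and 1 lower (2.86%, against 12.2%). The gene that rose was Chd4, the chromatin remodelling ATPase of the NuRD complex, by 0.60 in con/STZ (standard error 0.13, adjusted p = 0.0136 by limma). Trim28 had -0.06 in VHLΔPT (adjusted p = 0.742), 0.15 in con/STZ (adjusted p = 0.274) and 0.15 in VHLΔPT/STZ (adjusted p = 0.359). Setdb1 had 0.18 (adjusted p = 0.424), 0.06 (adjusted p = 0.749) and -0.02 (adjusted p = 0.929) in the same 3 groups. Neither of these 2 core partners of KRAB proteins was called.

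Markers of other cortex cells differed between the groups. The summed level of 6 thick ascending limb markers was 114734 and 134042 in VHLΔPT, 166975 and 160464 in con/STZ, 124620 and 113003 in VHLΔPT/STZ, and 93700 to 105298 in con. That of 5 distal convoluted tubule markers was 24216 and 23547 in VHLΔPT, 49801 and 51408 in con/STZ, 29338 and 38478 in VHLΔPT/STZ, and 17844 to 23718 in con. All markers of these 2 lists were present and none was at 0 in all libraries. The sum of the 7 podocyte markers tested was 11150 and 12135 in VHLΔPT, 11890 and 13589 in con/STZ, 11855 and 11296 in VHLΔPT/STZ, and 8962 to 9950 in con, so that every altered library was above con, the same split as for Zfp871. The sum of the 9 macrophage and myeloid markers tested was 3490 and 3995 in VHLΔPT, 2765 and 3077 in con/STZ, 3553 and 2907 in VHLΔPT/STZ, and 4302 to 5440 in con, with every altered library below con. The part of these shifts in the changes of the zinc finger genes was not tested. In whole cortex, fewer cells of a type and less RNA per cell cannot be told apart.

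Because Vhl loss keeps hypoxia-inducible factors active, promoters were searched for their core motif, ACGTG or GCGTG on either strand, in the 250 bases before the RefSeq start (GRCm38.p6). A promoter was matched for 98 of the 112 genes, and 44 held the motif (44.9%), against 38.6% of 32851 RefSeq promoters. Zfp871 had 1 match and Zfp971 had 0. A match is only a run of letters and is no evidence of binding.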

How the data were processed

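Cortex RNA of pooled mice was sequenced as stranded poly(A) libraries. The authors used Trim Galore 0.4 for trimming, STAR 2.5.2b for alignment to GRCm38, and featureCounts 1.5.2 and StringTie 1.3.3b for counting. Whether strand was used in counting is not given in the sources used here. The signal values used are quantile normalized counts that the authors deposited. They are not read counts, so depth is unknown, and no count model was fitted. The deposited table's fold changes and p-values of the authors' own comparisons were not used.

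Genes averaging 10 or more were analysed as log2(value + 1) in limma 3.58.1 (R 4.3.3), fitted as 4 group means with a trend and 5 residual degrees of freedom, two-sided, with Benjamini-Hochberg adjustment over all 14437 genes. Calls needed an adjusted p under 0.05 and a fold over 1.5. Nothing in the labels pairs the library numbers. Steps were tested on simulated data. Fingers and the KRAB box were found by sequence patterns in GENCODE M21, and the printed finger is the first with the usual linker. Figures used matplotlib 3.10.9.

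The members and gene lists were chosen with earlier results of these data known. Named are all called genes, the 8 highest per kb in con, genes of known role, Chd4, Trim28, Setdb1 and the 5 genes most like Zfp871. Zfp951, the library values of Zfp810 and the neighbours of Zfp871 were added after the values were seen. So was the count of corepressor genes by the adjusted p alone. Zfp819 and Zfp830 were not analysed here.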

Additional observations from a re-analysis of the deposited data

Results flagged for a closer look

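The STZ change of Zfp871 differed between the genotypes by the interaction term, with a log2 value of -3.33 (standard error 0.61, limma adjusted p = 0.0416). In VHLΔPT/STZ against VHLΔPT it was -0.70, and in con/STZ against con 2.62. The value rests on 2 VHLΔPT/STZ libraries of 560.0 and 266.0 normalized counts and on con libraries of 131.6, 162.2 and 62.8. Over the 19 alternatives that gave a value the term stayed negative, from -3.86 to -2.34, and passed in 8 of them, with adjusted p from 0.0291 to 0.216.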

How the results depend on the processing

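No call turned its direction under any alternative run. In VHLΔPT, the 2 called genes became 1 with no filter on low values, 4 with library weights, and 0 without the limma trend, with the replicate block, with the length trend removed, with only the groups compared, and without con 3, con/STZ 2 and VHLΔPT/STZ 2. Leaving out 1 library gave 0 to 4. In con/STZ, the 10 calls became 5 with the replicate block, and were fewer without the 3 libraries just named. Among fits with 1 library left out they were fewest when that library was con/STZ 1 or con/STZ 2. In VHLΔPT/STZ, 1 gene (Zfp758) passed with a pseudocount of 10, with a mean of at least 50 and after rescaling by median ratios. In VHLΔPT/STZ against VHLΔPT, leaving out 1 library gave 0 to 1. For the interaction, the 1 call became 2 with a mean of at least 50 or library weights, and 0 without the trend, with the replicate block, with the length trend removed or without the 3 libraries, and 0 to 5 with 1 library left out. The causes were not tested. Where a group kept 1 library, it was assumed to vary like the others. Correlations of same-numbered libraries, taken on deviations from the group mean, ranged from -0.109 to 0.273, with 4 of 12 over 0.1. In a group of 2 libraries these deviations mirror each other. The 12 values are therefore not independent and cannot show whether the numbers pair the samples.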
